A study of Mus musculus with 27 samples.

Results

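The genes described here encode the scaffold of the sarcomere, the contractile unit of striated muscle. They were taken as a list of 39 symbols, matched to the gene name that the array files give each probe. All 39 were on the array, with 58 of its 55681 distinct probes, and 36 of them, with 53 probes, had values on at least 75% of the arrays and were tested among 16636 genes. The list was named for the thin filament and the Z-disc, but it also holds thick filament, M-band and titin-associated genes. It was therefore read by role, with 9 thin filament genes, 7 thick filament genes, 2 M-band genes, 6 genes for titin and proteins bound to it, 9 Z-disc genes and 6 genes for intermediate filaments, costameres and actin cross-linkers.

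In a sarcomere, actin thin filaments are anchored in the Z-disc by alpha-actinin and slide past myosin thick filaments that are tied together in the M-band. Titin spans the sarcomere from Z-disc to M-band, while nebulin runs along the thin filament. Several of these proteins exist in forms that differ between slow and fast fibers. A few, among them the ankyrin repeat proteins Ankrd1 and Ankrd2, the LIM protein Csrp3 and the Xin protein Xirp1, are known to respond to stretch, load or injury of muscle.

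Each sample was the RNA of 1 myofiber of the tibialis anterior, a mostly fast hindlimb muscle, from male mice aged 3 months by the labels. The 8 WT myofibers came from 2 mice, the 12 Smn1deltaSKM myofibers from 3 mice and the 7 Smn1deltaSKM+AFS myofibers from 2 mice. The study's text counts the treated mice and myofibers differently from the labels, which were followed here. Smn1deltaSKM mice carry HSA-Cre and Smn F7/F7, so Cre, driven by the human skeletal actin promoter, removes part of *Smn1* in myofibers and not in the other cells of the muscle. The gene from which that promoter derives is the human counterpart of the member *Acta1*. Smn1deltaSKM+AFS mice have the same genotype and received amniotic fluid stem cells (AFS), selected for c-kit and marked with GFP, through the tail vein. The methods name GFP-marked C57BL/6 mice as a source of myofibers beside the transplanted mice, while the study elsewhere calls the WT mice control littermates, and the labels do not give a strain. The methods place the injection at 3 months and the isolation of fibers 1 month later, which differs from the age in the labels. Whole muscles were digested with collagenase and each fiber's RNA was amplified in 18 cycles before hybridization in 1 colour to an Agilent array.

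Levels are given on the log2 scale, relative to the 75th percentile of the same array, so that 0 is the level of that percentile and 1 unit is a doubling. They compare samples for 1 probe and not 1 gene with another. Groups were compared with limma on the means of the mice. Between 23170 and 37580 probes had a value on an array, and precision is limited by how many mice there are. WT was hybridized on 1 slide and scanned on a day with no other group, so batch and genotype cannot be told apart in any comparison with WT. A probe of *Smn1* lay between 0.63 and 2.38 in WT myofibers, between -1.41 and 0.66 in Smn1deltaSKM and between -1.04 and 1.32 in Smn1deltaSKM+AFS, and the other *Smn1* probe gave 1.59 to 2.91, 1.83 to 3.37 and 2.36 to 3.88. The myofiber markers *Ckm*, *Myh4*, *Acta1*, *Pygm* and *Ryr1* had values in all groups. Their summed level was 9.81 to 10.51 in WT, 8.75 to 9.57 in Smn1deltaSKM and 9.36 to 9.84 in Smn1deltaSKM+AFS, so it was lower in every Smn1deltaSKM myofiber than in any WT myofiber. Of 5 fibroblast markers 4 had values in each group and *Pdgfra* had none. Their summed level was -0.39 to 6.85 in WT, 0.59 to 5.10 in Smn1deltaSKM and 0.94 to 4.49 in Smn1deltaSKM+AFS. The medians were 1.18, 3.5 and 3.9 in the same order. The median was thus higher in the knockout groups, although the highest level of a single myofiber was in WT. The 4 immune markers, all with values in each group, summed to -0.24 to 1.20, 1.18 to 3.98 and 0.83 to 3.87 in the same order. Endothelial markers summed to 2.34 to 4.16, 3.07 to 4.10 and 3.6 to 4.18, and smooth muscle markers to 0.40 to 2.92, 2.47 to 3.57 and 2.93 to 3.90. Satellite cell markers (-4.43 to -1.73, with *Myf5* at no value) and Schwann cell markers (-3.65 to -1.16) were low in all groups. Heart muscle markers summed to -2.71 to -0.29 in WT, -0.70 to 0.23 in Smn1deltaSKM and -0.69 to 0.46 in Smn1deltaSKM+AFS. Their medians were -2.14, -0.22 and -0.36 in the same order. A lower share of myofiber RNA in a sample and less of these transcripts per fiber cannot be told apart on this scale, and the part of these lists in the differences described here was not tested.

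The promoters of 4 members are shown first because they belong to the pair of genes that rose in Smn1deltaSKM and to a fast myosin light chain and a thin filament cap that fell. Each is the 250 bases before the transcription start in RefSeq, on build GRCm38.p6, read 5′ to 3′ on the strand of the gene. *Ankrd1* is at chr19:36119845-36120094 on the minus strand, *Ankrd2* at chr19:42035777-42036026, *Mylpf* at chr7:127211358-127211607 and *Tmod4* at chr3:95124264-95124513, the last 3 on the plus strand. Capitals mark E-boxes (CANNTG) and MCAT elements (CATTCC, or GGAATG on the other strand), which are known binding motifs of myogenic bHLH factors and TEAD factors.
Ankrd1: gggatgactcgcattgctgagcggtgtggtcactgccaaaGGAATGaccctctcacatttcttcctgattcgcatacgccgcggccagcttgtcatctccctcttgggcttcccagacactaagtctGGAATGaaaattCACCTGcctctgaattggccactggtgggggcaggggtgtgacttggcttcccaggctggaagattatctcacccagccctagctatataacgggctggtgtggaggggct
Ankrd2: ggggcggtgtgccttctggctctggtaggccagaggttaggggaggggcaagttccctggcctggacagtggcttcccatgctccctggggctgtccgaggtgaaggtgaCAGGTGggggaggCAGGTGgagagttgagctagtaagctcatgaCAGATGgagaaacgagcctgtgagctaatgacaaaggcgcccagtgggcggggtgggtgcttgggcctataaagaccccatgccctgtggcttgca
Mylpf: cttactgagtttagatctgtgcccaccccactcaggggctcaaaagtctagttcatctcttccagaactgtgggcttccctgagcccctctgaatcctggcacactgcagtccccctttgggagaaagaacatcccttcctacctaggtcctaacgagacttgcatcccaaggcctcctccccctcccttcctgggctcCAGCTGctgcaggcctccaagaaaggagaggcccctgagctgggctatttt
Tmod4: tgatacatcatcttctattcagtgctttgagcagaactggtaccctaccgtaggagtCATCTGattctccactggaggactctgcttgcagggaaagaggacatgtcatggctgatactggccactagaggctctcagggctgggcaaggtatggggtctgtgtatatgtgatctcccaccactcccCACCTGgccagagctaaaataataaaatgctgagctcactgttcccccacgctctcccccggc

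The *Ankrd1* window held 1 E-box and 2 MCAT elements, the *Ankrd2* window 3 E-boxes, the *Mylpf* window 1 and the *Tmod4* window 2, and no matches shared a base. Both strands were searched. An E-box occurs in 66.2% of all 32851 promoter windows of this length and an MCAT element in 12.6%. RefSeq promoters were matched for 28 of the 39 members, with 33 start sites, of which 27 (81.8%) held an E-box and 11 (33.3%) an MCAT element. The MEF2 site was found in 3 of these windows (9.09%, against 2.92% of all) and the CArG box, the site of serum response factor, in 5 (15.2%, against 1.47%). Such matches describe the letters of these windows and are not known to be bound in these fibers.

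Loss of *Smn1* in muscle was first compared with WT. In Smn1deltaSKM myofibers 12 of the 36 tested members fell and 2 rose (limma, adjusted p under 0.05). Over all genes tested 13.9% were called lower and 8.05% higher, against 33.3% and 5.56% of the members. The median difference of the members was -0.75, against -0.11 over all genes, and 26 of 36 differences were below 0, as were 54.5% of those of all genes. Those that fell were *Tpm1*, *Tmod1* and *Tmod4* of the thin filament, *Mybpc2*, *Myl1* and *Mylpf* of the thick filament, *Actn3*, *Myoz1*, *Myoz3*, *Ldb3* and *Myot* of the Z-disc, and *Smpx* of the costamere. Those that rose were *Ankrd1* and *Ankrd2*. In 21 of 36 members (58.3%) every Smn1deltaSKM mouse lay below both WT mice, as in 33.2% of all genes, and in 4 every one lay above (11.1%, against 22.4%).

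These calls rest on both WT mice. Without WT mouse 1 or without WT mouse 2, limma called 0 members either way. With slide as a random block 10 members were lower and 0 higher, and with quantile normalization 6 were lower and 2 higher. The shares of all genes called in these fits are not given here, so the counts do not set the members against other genes. None of the 14 called members changed sign under any alternative run. With arrays centred on probes detected everywhere the median of all genes moved from -0.11 to 0.10 and that of the members from -0.75 to -0.54.

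**Figure D1:**
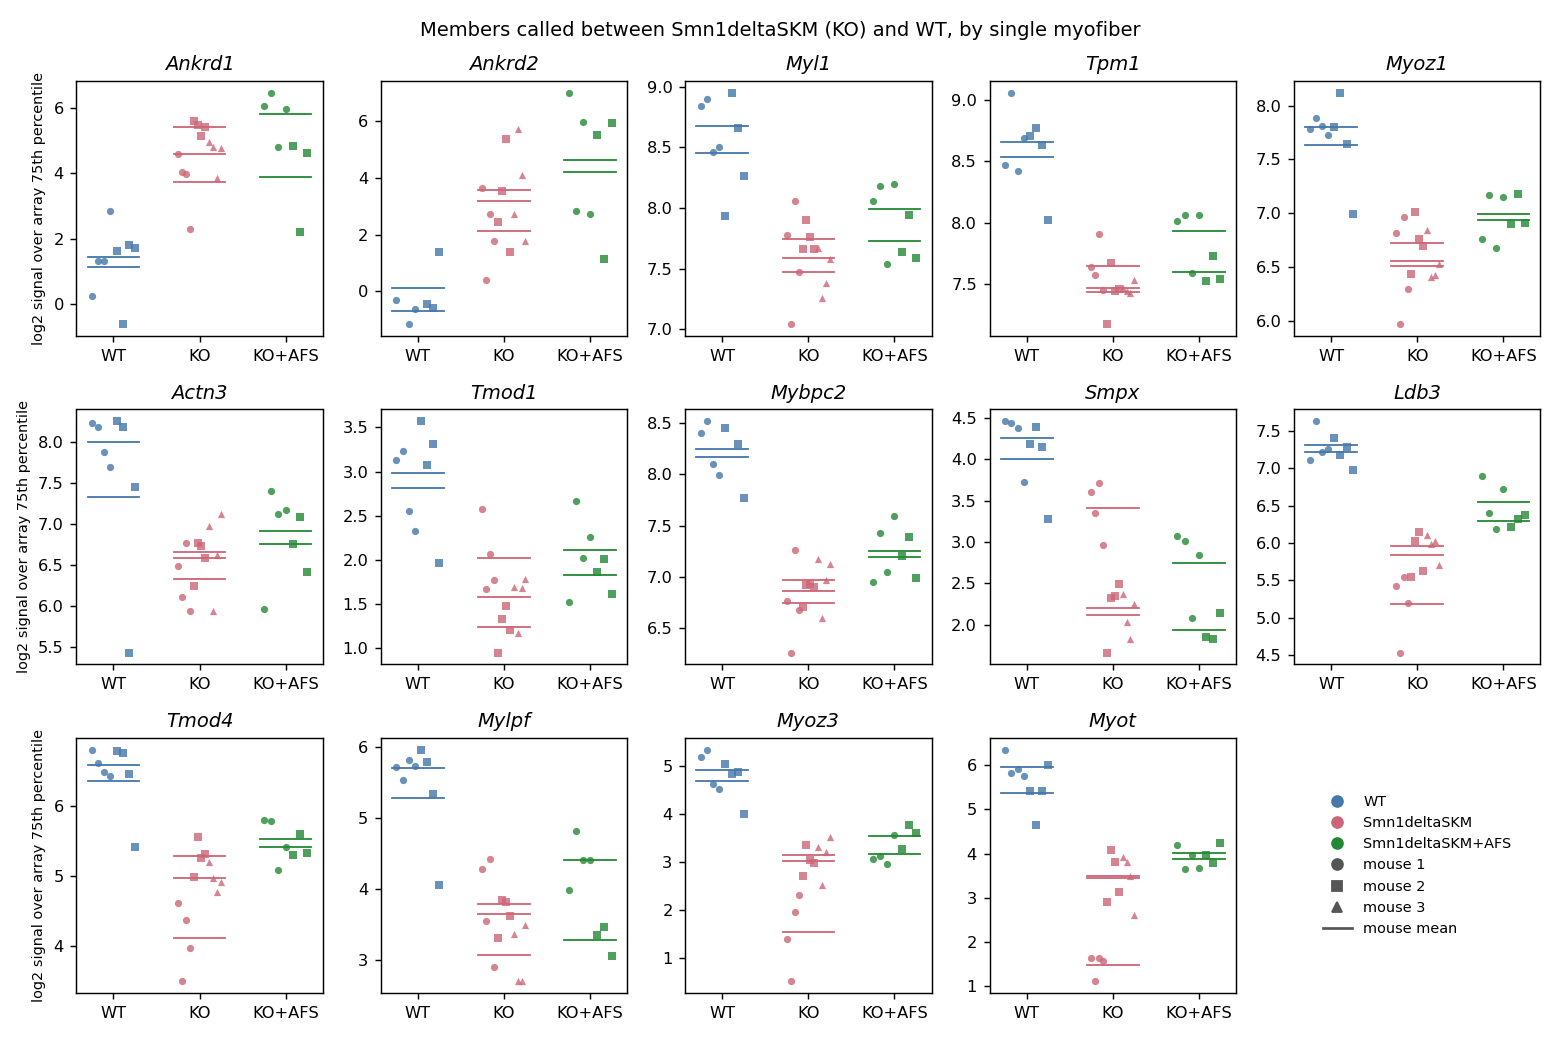
Level of the 14 members called between Smn1deltaSKM (KO) and WT, in log2 units over the 75th percentile of the array, with 1 point a myofiber, marker shapes for the mice of each group and lines for mouse means. The *Myot*, *Myoz3*, *Ldb3*, *Mybpc2* and *Tpm1* points of all 12 Smn1deltaSKM myofibers lie below the lowest WT point (8 WT myofibers, 7 on *Mybpc2*).

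The largest fall among called members was that of *Myot*, whose product myotilin cross-links actin at the Z-disc. The WT myofibers ranged from 4.65 to 6.36 with a median of 5.80. The Smn1deltaSKM myofibers ranged from 1.10 to 4.09 with a median of 3.02, and the Smn1deltaSKM+AFS myofibers from 3.65 to 4.25 with a median of 3.96. All 19 knockout myofibers, treated or not, thus lay below all 8 of WT. The difference between Smn1deltaSKM and WT was -2.86 (SE 0.582, adjusted p = 0.0166), a 7.28-fold fall. By mouse, the means were 5.97 and 5.38 in WT against 1.48, 3.49 and 3.45 in Smn1deltaSKM, so the fall was deepest in Smn1deltaSKM mouse 1.

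*Myoz3*, a calsarcin that joins alpha-actinin to calcineurin at the Z-disc, gave the same order of groups. Its WT myofibers lay between 4.01 and 5.34 (median 4.86), those of Smn1deltaSKM between 0.52 and 3.53 (median 2.84) and those of Smn1deltaSKM+AFS between 2.95 and 3.77 (median 3.27). No knockout myofiber reached the lowest WT value, and the difference from WT was -2.23 (SE 0.473, adjusted p = 0.0189). The fast-fiber calsarcin *Myoz1* fell by 1.12 (SE 0.246, adjusted p = 0.0204), from 6.99 to 8.12 in WT (median 7.79) to 5.97 to 7.01 in Smn1deltaSKM (median 6.62), and 11 of 12 Smn1deltaSKM myofibers lay below the lowest of WT. Its Smn1deltaSKM+AFS myofibers ranged from 6.68 to 7.18 with a median of 6.91. *Ldb3*, a PDZ-LIM protein of the Z-disc known as ZASP or Cypher, was at 6.97 to 7.63 in WT (median 7.24), 4.53 to 6.15 in Smn1deltaSKM (median 5.66) and 6.19 to 6.89 in Smn1deltaSKM+AFS (median 6.37). Here the 3 groups did not overlap at all, and the difference between Smn1deltaSKM and WT was -1.6 (SE 0.308, adjusted p = 0.0148).

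Of the alpha-actinins, *Actn3* was called lower and *Actn2* was not called. *Actn3*, the form of the fastest fibers, had medians of 8.03, 6.6 and 7.09 in WT, Smn1deltaSKM and Smn1deltaSKM+AFS. Its ranges were 5.43 to 8.26, 5.94 to 7.12 and 5.97 to 7.41, and the difference from WT of -1.14 in Smn1deltaSKM was called (SE 0.294, adjusted p = 0.0305). The ranges overlapped because of 1 WT myofiber, WT-7, as all other WT myofibers lay at 7.46 or above. *Actn2*, the form found in all fibers, had medians of 1.00, 2.91 and 4.29, with ranges of 0.15 to 4.19, -0.88 to 4.43 and 2.47 to 4.83. The Smn1deltaSKM difference of *Actn2* from WT, 0.81 (SE 0.308, adjusted p = 0.0889), did not pass. Of the other Z-disc genes, *Pdlim3* was at -0.75 (SE 0.373, adjusted p = 0.172) and *Csrp3* at 2.49 (SE 0.841, adjusted p = 0.0651).

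The members were also read by fiber type. All 6 on a list of fast-fiber members, *Actn3*, *Mybpc2*, *Myl1*, *Mylpf*, *Myoz1* and *Tmod4*, were called lower in Smn1deltaSKM, with differences from -1.99 to -0.96. The list was drawn up with earlier results of these data known, so this count describes its genes and supports nothing further. *Myom2*, also known from fast fibers, is not on it and was not called. Of 7 members of the slow-fiber list 5 were tested, and of these *Ankrd2* was called higher and the others, *Myl3*, *Tpm3*, *Csrp3* and *Mybpc1*, were not called. *Mylpf*, the fast regulatory light chain, showed the largest change of the fast group, -1.99 (SE 0.397, adjusted p = 0.0160). Its myofibers ranged from 4.05 to 5.96 in WT (median 5.73), from 2.70 to 4.42 in Smn1deltaSKM (median 3.52) and from 3.05 to 4.82 in Smn1deltaSKM+AFS (median 3.98). Myofiber WT-8, at 4.05, was the only 1 of WT below 5.33.

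Of the rest of the thick filament, *Mybpc2*, the fast myosin-binding protein C, separated the genotypes most cleanly. Its WT values of 7.77 to 8.52 (median 8.30, 7 of 8 arrays) stood above all those of Smn1deltaSKM, 6.26 to 7.26 (median 6.91), and of Smn1deltaSKM+AFS, 6.95 to 7.59 (median 7.20), and the difference between Smn1deltaSKM and WT was -1.35 (SE 0.244, adjusted p = 0.0129). *Myl1*, the fast essential light chain, fell by 0.96 (SE 0.258, adjusted p = 0.0345). It ranged from 7.93 to 8.95 in WT (median 8.58), from 7.04 to 8.06 in Smn1deltaSKM (median 7.66) and from 7.54 to 8.20 in Smn1deltaSKM+AFS (median 7.94). *Mybph*, myosin-binding protein H, had the widest difference of this role, -2.78, but its standard error of 1.02 left it uncalled (adjusted p = 0.0815). Its mouse means were 4.14 and 4.15 in WT, 3.12, 0.69 and 0.29 in Smn1deltaSKM and 2.35 and -0.86 in Smn1deltaSKM+AFS. Smn1deltaSKM mouse 1 thus lay more than 2 units above the other Smn1deltaSKM mice on this gene. It had values on 7 of 8 WT, 10 of 12 Smn1deltaSKM and 4 of 7 Smn1deltaSKM+AFS arrays. The -0.86 is myofiber Smn1deltaSKM+AFS-6 alone, and the measured myofibers of Smn1deltaSKM+AFS mouse 1 ranged from -0.16 to 3.77. *Mybpc1*, the slow myosin-binding protein C (0.33), and *Myl3*, the slow essential light chain (0.30), had adjusted p of 0.559 and 0.599.

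Along the thin filament all 8 tested members had differences below 0 on the probe that stood for each gene. The other *Tpm3* probes were above 0 (2.23 and 0.70), and *Tpm2* and *Tpm3* changed sign under some alternatives. The probe that stood for *Tpm3* had values on 6 of 8 WT arrays. With the signals that had been left out kept, its mean was 1.31 in WT and 2.63 in Smn1deltaSKM, the opposite direction. *Tmod4* and *Tmod1* encode tropomodulins, which cap the pointed ends of actin filaments. *Tmod4* lay between 5.41 and 6.80 in WT (median 6.55), between 3.50 and 5.56 in Smn1deltaSKM (median 4.94) and between 5.09 and 5.80 in Smn1deltaSKM+AFS (median 5.41), and its difference of -1.68 between Smn1deltaSKM and WT was the largest of this role (SE 0.364, adjusted p = 0.0198). *Tmod1* lay between 1.97 and 3.57 in WT (median 3.1), between 0.95 and 2.58 in Smn1deltaSKM (median 1.67) and between 1.52 and 2.67 in Smn1deltaSKM+AFS (median 2.01), with a difference of -1.28 (SE 0.304, adjusted p = 0.0245). The Smn1deltaSKM ranges of both reached slightly above the lowest WT myofiber, with 11 and 10 of 12 myofibers below it.

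*Tpm1*, a tropomyosin that lies along actin and moves with calcium, fell by 1.08 (SE 0.256, adjusted p = 0.0243). Its WT myofibers were at 8.02 to 9.06 (median 8.66), with all of Smn1deltaSKM at 7.17 to 7.91 (median 7.47) and those of Smn1deltaSKM+AFS at 7.52 to 8.06 (median 7.73). *Acta1*, the skeletal actin itself, was at -0.67 (SE 0.293, adjusted p = 0.127), *Neb* at -0.78 (SE 0.262, adjusted p = 0.0632), *Lmod3*, an actin nucleator, at -0.65, *Tpm3* at -0.45 and *Tpm2* at -0.36. The last 3 had adjusted p of 0.159, 0.552 and 0.356.

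At the costamere, which ties the outer myofibrils to the membrane, *Smpx* was at 3.28 to 4.46 in WT (median 4.28), 1.66 to 3.71 in Smn1deltaSKM (median 2.36) and 1.83 to 3.07 in Smn1deltaSKM+AFS (median 2.14). The difference between Smn1deltaSKM and WT was -1.55 (SE 0.443, adjusted p = 0.0410). Its means of 3.40, 2.20 and 2.12 in the Smn1deltaSKM mice set mouse 1 nearest to WT, opposite to *Myot* and *Myoz3*. The intermediate filament protein desmin, *Des*, was at -0.81 (SE 0.301, adjusted p = 0.0854), the small heat shock protein *Cryab* at 0.023 and the Xin protein *Xirp2* at -0.58, with adjusted p of 0.972 and 0.458.

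The M-band genes *Myom1* and *Myom2*, which cross-link myosin tails, were not called. *Myom2*, the M-protein of fast fibers, had the larger difference, -1.29 (SE 0.439, adjusted p = 0.0663). Its mouse means were 7.26 and 7.39 in WT and 5.20, 6.20 and 6.71 in Smn1deltaSKM, with 11 of 12 Smn1deltaSKM myofibers below the lowest WT myofiber. *Myom1* was at -0.35 (SE 0.366, adjusted p = 0.498).

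*Ankrd1* and *Ankrd2* were the 2 members called higher, among 10 with a difference above 0. Both encode ankyrin repeat proteins that bind titin in the I-band and can enter the nucleus. *Ankrd1* lay between -0.61 and 2.85 in WT myofibers (median 1.48), between 2.30 and 5.59 in Smn1deltaSKM (median 4.79) and between 2.20 and 6.46 in Smn1deltaSKM+AFS (median 4.82). It was above the highest WT myofiber in 11 of 12 Smn1deltaSKM and 6 of 7 Smn1deltaSKM+AFS myofibers. The difference between Smn1deltaSKM and WT was 3.29 (SE 0.624, adjusted p = 0.0144), a 9.79-fold rise.

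*Ankrd2* had values on 6 of 8 WT arrays, the others being not well above background. It lay between -1.18 and 1.39 in WT (median -0.53), between 0.40 and 5.74 in Smn1deltaSKM (median 2.74) and between 1.12 and 7.02 in Smn1deltaSKM+AFS (median 5.52). Its difference between Smn1deltaSKM and WT was 3.27 (SE 0.462, adjusted p = 0.00775) over the measured arrays, and 3.76 (adjusted p = 0.00593) with the signals near background kept. Its range within the knockout groups was wider than that of *Ankrd1*. With slide as a random block neither *Ankrd1* (adjusted p = 0.0644) nor *Ankrd2* (adjusted p = 0.188) was called. Other genes of titin and its partners were not called in Smn1deltaSKM against WT, with *Ttn* at -1.77 (SE 0.596, adjusted p = 0.0648), *Trim54* at -0.76, *Tcap* at -0.19 and *Trim55* at 0.12. *Trim54* and *Trim55* encode ubiquitin ligases of the MuRF family and *Tcap* encodes telethonin, which caps titin in the Z-disc.

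Genes that respond to tissue dissociation were read beside the stress-responsive members. Of 6 such genes 5 were on the array by that symbol, and their summed level was 4.90 to 6.63 in WT, 5.10 to 7.86 in Smn1deltaSKM and 7.12 to 8.56 in Smn1deltaSKM+AFS. In Smn1deltaSKM against WT, *Atf3* differed by 2.87 (adjusted p = 0.00969), *Egr1* by 2.39 (0.0192) and *Fosb* by 1.71 (0.146), whereas *Fos* differed by 0.060 (0.967) and *Jun* by -0.91 (0.233). The part of this list in the differences of *Ankrd1*, *Csrp3*, *Xirp1*, *Cryab* and *Flnc* was not tested.

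**Figure D2:**
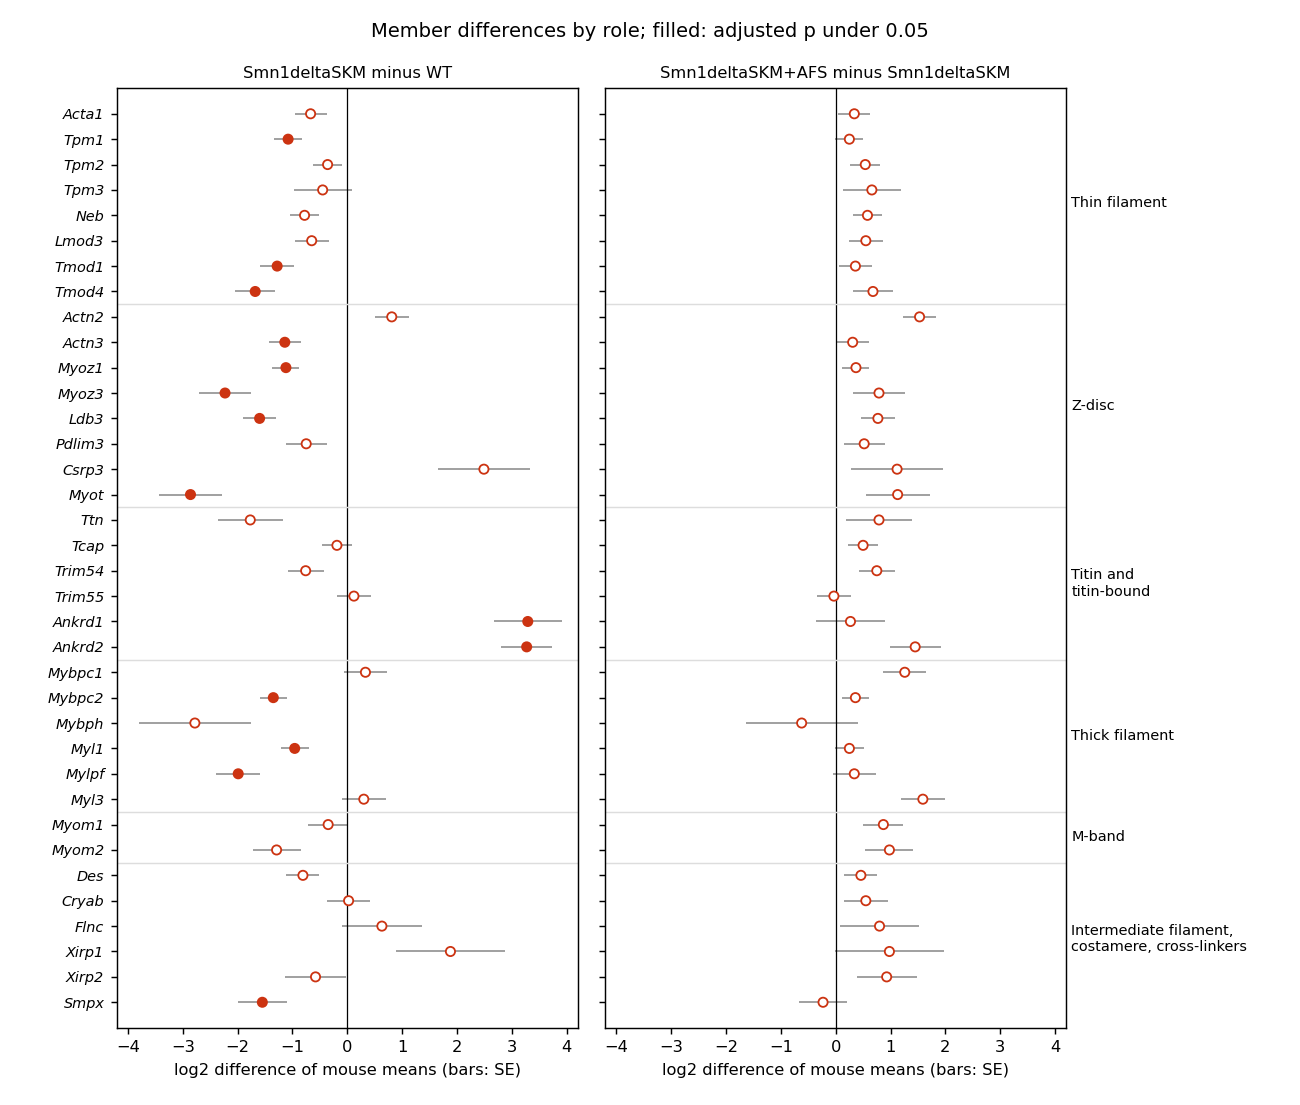
Difference of mouse means with its standard error for the 36 tested members, by role, on the log2 scale. At left, Smn1deltaSKM minus WT, with 14 filled points for adjusted p under 0.05; at right, Smn1deltaSKM+AFS minus Smn1deltaSKM, where no point is filled and 33 of 36 lie above 0. Both panels use the same Smn1deltaSKM mice.

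Other genes of the sarcomere, from a list of 41 that includes isoforms, chaperones and further Z-disc proteins, were examined for comparison. Of these 35 were tested, 7 were called lower and 3 higher in Smn1deltaSKM, and their median difference was -0.67. Over all genes tested 13.9% were called lower and 8.05% higher. Those called lower were *Pdlim5* (-1.87), *Fhod3* (-1.96), *Cmya5* (-1.59), *Mylk2* (-1.86), *Palld* (-1.06), *Fhl3* (-1.28) and *Capzb* (-1.33). *Mylk2* encodes the kinase of skeletal myosin light chains and *Capzb* a subunit of the cap at the Z-disc end of actin. Those called higher were *Fhl1* (2.49), *Pdlim1* (1.46) and *Actn1* (1.40). *Actn1* is an alpha-actinin of non-muscle cells. The alpha-actinin genes *Actn1*, *Actn2*, *Actn3* and *Actn4* had differences of 1.40, 0.81, -1.14 and -0.041.

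Smn1deltaSKM mouse 1 stood apart from the other Smn1deltaSKM mice on a set of these genes. Its myofibers 1 to 3 were scanned on a different day than its myofiber 4 and those of the other mice. *Xirp1*, an actin cross-linker of damaged and loaded fibers, averaged 2.42 in this mouse, and 6.13 and 5.71 in mice 2 and 3, while the WT mice were at 2.81 and 2.93. Its difference of 1.88 from WT was the widest of its role and was not called (SE 1.00, adjusted p = 0.196). Across myofibers *Xirp1* ranged from 2.30 to 3.48 in WT, from 1.65 to 6.35 in Smn1deltaSKM and from 3.92 to 6.88 in Smn1deltaSKM+AFS. Thus 9 of 12 Smn1deltaSKM and all 7 Smn1deltaSKM+AFS myofibers were above every WT myofiber.

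*Flnc*, filamin C, went with *Xirp1*, at 3.62 in mouse 1 against 6.20 and 6.03 in mice 2 and 3 and 4.75 and 4.55 in WT. *Xirp2* averaged 0.39 in mouse 1 against 2.35 and 2.24, and *Ttn* 2.79 against 4.65 and 4.93. *Cryab* averaged 6.19 against 7.38 and 7.23, and *Tpm3* 1.56 against 2.79 and 3.54. *Mybph* ran the other way, at 3.12 against 0.69 and 0.29. Myofiber 4 of mouse 1, of the other scan day, did not always go with its mouse. It was at 3.76 on *Xirp1* where myofibers 1 to 3 had 1.65 to 2.21, at 4.53 on *Flnc* where they had 2.92 to 3.66, and at 4.42 on *Ttn* where they had 1.22 to 2.92. On these genes it still lay below every myofiber of mice 2 and 3, whose lowest values were 5.46, 5.77 and 4.44. On *Xirp2* (-0.98), *Cryab* (6.29) and *Mybph* (2.24) it also stayed apart from all myofibers of mice 2 and 3. Smn1deltaSKM+AFS mouse 1 also had myofibers on both days. On *Ttn* its day 1 myofibers were at 3.80 and 3.81 and those of day 2 at 5.03 and 5.58, while on *Xirp1* they were at 6.69 and 5.68 against 6.75 and 6.88. The part of scan day in these values was not tested. The *Flnc* difference of 0.63 from WT over the 3 mice (SE 0.724, adjusted p = 0.546) thus averages a mouse below WT with a pair above it.

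Without Smn1deltaSKM mouse 1, 18 members were called lower and 5 higher against WT. Without mouse 2 or without mouse 3, 6 were lower and 2 higher in each case. Without only its 3 myofibers of scan day 1, a setting chosen after the data were seen, 17 were lower and 3 higher. These counts are given without the shares of all genes called, and so do not set the members apart from other genes.

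**Figure D3:**
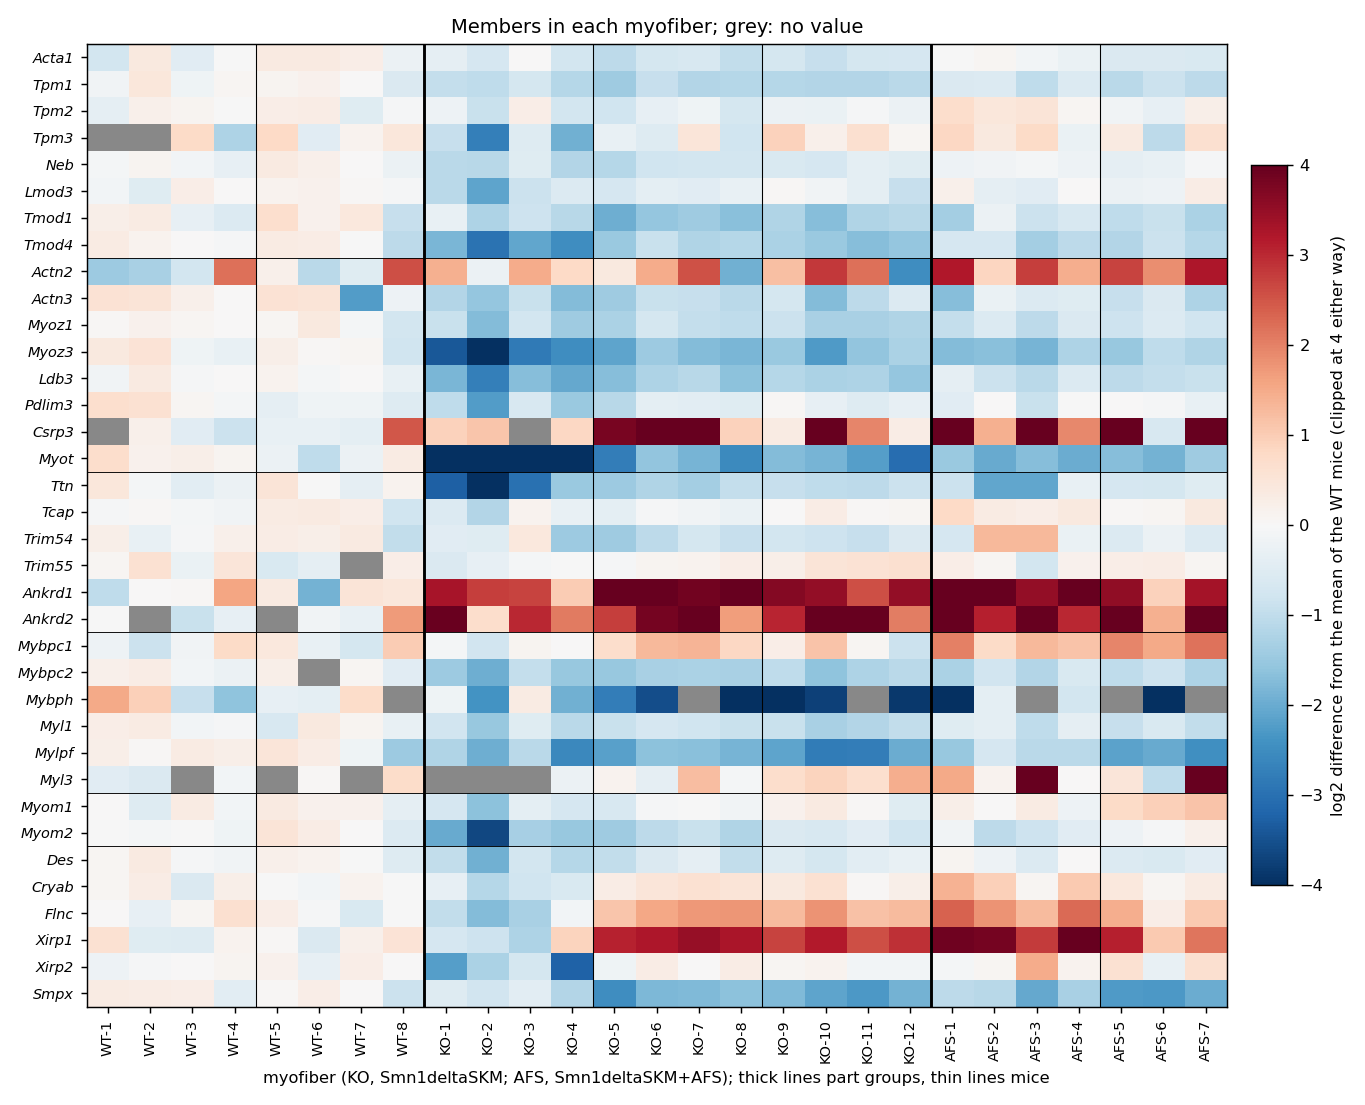
Level of each tested member in each of the 27 myofibers as the log2 difference from the mean of the WT mice, with rows by role and columns by mouse. Grey marks a spot left out as not found, not well above background or marked as an outlier. *Ankrd1* and *Ankrd2* are above WT (red) in most knockout myofibers, and *Xirp1* and *Flnc* are above WT in Smn1deltaSKM myofibers 5 to 12 but not in 1 to 3.

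Myofibers of 1 mouse also differed among themselves. The spread within a mouse (SD) had a median of 0.43 over the members and of 0.44 over all genes. It ranged from 0.20 to 2.32 among the members, and the widest were *Csrp3* (2.32), *Myl3* (1.99), *Ankrd2* (1.75), *Actn2* (1.6) and *Mybph* (1.28). *Csrp3*, the muscle LIM protein of slow and loaded fibers, ranged from -2.79 to 0.56 in WT, from -1.62 to 4.73 in Smn1deltaSKM and from -2.56 to 5.27 in Smn1deltaSKM+AFS.

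Several of these varied with *Myh1*, the myosin heavy chain of type 2X fibers. *Myh4*, the heavy chain of type 2B fibers, was high in all 27 myofibers (6.01 to 7.94), *Myh7*, that of slow fibers, stayed between -1.38 and 0.085, and *Myh2* had values on only 4 arrays. *Myh1* ranged from -0.66 to 3.69 in WT, from 0.55 to 6.77 in Smn1deltaSKM and from -0.27 to 7.81 in Smn1deltaSKM+AFS. Its own difference from WT was 2.20 in Smn1deltaSKM (adjusted p = 0.0224) and 3.45 in Smn1deltaSKM+AFS (adjusted p = 0.0184). No WT myofiber reached the *Myh1* level of myofibers such as Smn1deltaSKM-10 (6.77) or Smn1deltaSKM+AFS-1 (7.81).

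With the mean of each mouse taken away, Pearson's r with *Myh1* over myofibers was 0.91 for *Ankrd2* and 0.88 for *Csrp3* (24 myofibers each). It was 0.66 for *Actn2*, 0.63 for *Mybpc1* and 0.62 for *Tpm2* (26 myofibers each), 0.65 for *Tpm3* (24) and 0.58 for *Myl3* (21). These are descriptions: the points share mice, slides and an amplification for each fiber. Of all genes 0.319% had an r of at least 0.7. Within the groups r was 0.65, 0.88 and 0.98 for *Ankrd2* in WT (6 myofibers), Smn1deltaSKM (11) and Smn1deltaSKM+AFS (7), and 0.71, 0.83 and 0.96 for *Csrp3* (7, 10 and 7). Groups differed more for *Tpm2* (0.29, 0.75 and 0.79 in the same order), *Tpm3* (0.33, 0.6 and 0.96) and *Myl3* (0.79, 0.22 and 0.71). On the low side were *Myoz3* (-0.51), *Mybpc2* (-0.48) and *Tmod1* (-0.40), and 6.22% of all genes had an r of -0.4 or lower. By group these were -0.86, -0.41 and -0.68 for *Myoz3*, -0.83, 0.0067 and -0.84 for *Mybpc2*, and -0.86, 0.15 and -0.67 for *Tmod1*. The low r of *Mybpc2* and *Tmod1* was thus not seen in Smn1deltaSKM. *Ankrd1*, at 0.35, followed *Myh1* less closely than *Ankrd2*, although *Ankrd2* and *Csrp3* followed each other at 0.91.

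**Figure D4:**
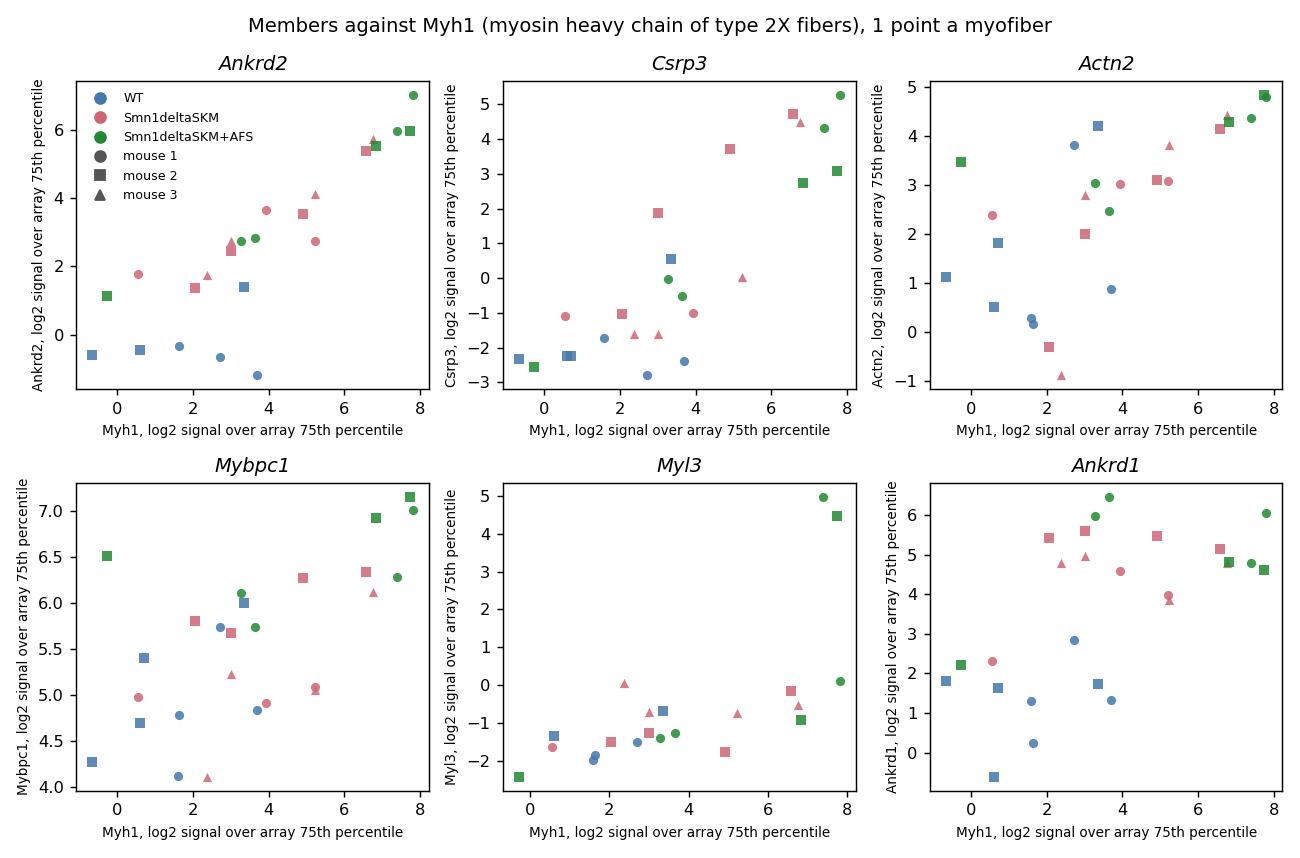
Level of 6 members against that of *Myh1*, in log2 units over the 75th percentile of the array, with 1 point a myofiber, coloured by group and shaped by mouse. *Ankrd2* and *Csrp3* rise along *Myh1* in the knockout groups, WT points end at a *Myh1* level of 3.69, and the highest *Myl3* points are those of Smn1deltaSKM+AFS myofibers 3 and 7.

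With the *Myh1* level of each myofiber as a covariate and mouse as a random block, a fit chosen after the data were seen, the *Ankrd2* difference between Smn1deltaSKM and WT was 2.20 (adjusted p = 0.00306), against 3.27 with the block alone (adjusted p = 0.0243). The *Ankrd1* difference was 2.93 (adjusted p = 0.00174). That of *Csrp3* was 0.93 (adjusted p = 0.413) where it was 2.53 with the block alone, and that of *Actn2* was -0.039 where it was 0.81. *Mylpf* (-1.91) and *Mybpc2* (-1.19) were called lower also in this fit, whereas *Actn3* (-1.05, adjusted p = 0.0763) was not. Myofiber Smn1deltaSKM-2, which has no *Myh1* value, was left out of this fit.

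Mice that had received AFS cells were next compared with untreated Smn1deltaSKM mice. Limma called 0 of the 36 members and 0 of all genes (0.0% in either direction), with the lowest adjusted p at 0.9997. At an unadjusted p under 0.05 there were 6 members, 16.7% of them, and 533 genes, 3.20% of all. The members lay higher in Smn1deltaSKM+AFS for 33 of 36, as did 57.3% of all genes, with a median difference of 0.57 against 0.058 over all genes. In 19 members both treated mice lay above all 3 untreated mice (52.8%, against 12.4% of all genes) and in 0 below (4.18% of all genes).

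The widest differences were those of *Myl3* (1.59, SE 0.397), *Actn2* (1.53, SE 0.308), *Ankrd2* (1.45, SE 0.462), *Mybpc1* (1.26, SE 0.396) and *Myot* (1.13, SE 0.582), each with an adjusted p of 0.9997. *Mybpc1* lay at 4.11 to 6.34 in Smn1deltaSKM (median 5.16) and at 5.74 to 7.16 in Smn1deltaSKM+AFS (median 6.51), with 4.12 to 6.0 in WT (median 4.81). Its mouse means of 6.29 and 6.87 with AFS were above the 4.79, 6.02 and 5.13 without. *Actn2* averaged 3.67 and 4.2 in the treated mice, 2.45, 2.23 and 2.54 in the untreated and 1.28 and 1.91 in WT. *Ankrd2* averaged 4.64 and 4.2, against 2.13, 3.19 and 3.59 and against -0.72 and 0.11. For these genes the treated mice were the farthest from WT. The 5 tested members of the slow-fiber list had a median difference of 1.26 and the 6 of the fast-fiber list one of 0.35 in this comparison, with none called. The 35 tested genes of the wider sarcomere list had a median of 0.39, also with none called.

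*Myl3* was high in single myofibers. It reached 4.98 in Smn1deltaSKM+AFS-3 and 4.47 in Smn1deltaSKM+AFS-7, from different mice, while the median of the treated myofibers was -0.92. It ranged from -1.76 to 0.065 in Smn1deltaSKM (median -0.74) and from -1.99 to -0.68 in WT (median -1.50). The mouse means of 0.60 and 0.38 with AFS thus each include 1 such myofiber. Those 2 myofibers had *Myh7* at -0.42 and -0.54, inside the range of all others, and *Myh1* at 7.40 and 7.75.

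Of the members that had fallen in Smn1deltaSKM, *Myot* averaged 3.87 and 4.00 in the treated mice against 1.48, 3.49 and 3.45 in the untreated, and *Ldb3* averaged 6.55 and 6.30 against 5.18, 5.83 and 5.95. *Tmod4* was at 5.52 and 5.41 against 4.12, 5.28 and 4.96. For these genes treated mice lay above all untreated mice and below both WT mice. *Smpx*, at 2.75 and 1.94, and *Mybph*, at 2.35 and -0.86, with *Trim55*, at 1.37 and 1.62, were the 3 members with a difference below 0. The -0.86 of *Mybph* is the value of a single myofiber, Smn1deltaSKM+AFS-6. The untreated mice are the same as in the comparison with WT, so these values are not independent of the falls described there.

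Both groups were spread over the same scan days, but they shared only slide 3, with Smn1deltaSKM-4 and Smn1deltaSKM+AFS-4. Slide and treatment can therefore hardly be told apart. Among arrays of scan day 2 the members' median difference was 0.63, over 3 untreated and 2 treated mice, and on scan day 1 it was 0.94, over 1 mouse of each kind. It was 0.58 with scan day as a fixed block and 0.32 without Smn1deltaSKM mouse 1. No member was called in any of these fits.

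Treated mice were also compared with WT. Of 36 members 4 were called higher (11.1%, against 3.47% of all genes) and 0 lower (0.0%, against 4.33% of all genes). An unadjusted p under 0.05 in limma was seen for 20 of the members (55.6%, against 29.7% of all genes). The median difference was -0.21, against -0.044 over all genes. In 12 members (33.3%, against 32.0% of all genes) both treated mice lay above both WT mice, and in 16 (44.4%, against 36.0%) both lay below. Those called higher were *Ankrd2* (4.72, SE 0.506, adjusted p = 0.0112), *Ankrd1* (3.56, SE 0.683, adjusted p = 0.0280), *Actn2* (2.34, SE 0.337, adjusted p = 0.0155) and *Myl3* (1.89, SE 0.435, adjusted p = 0.0420). The *Myl3* call rests on few arrays. It had values on 5 of 8 WT arrays, the treated median of -0.92 lies inside the WT range, and the treated myofibers at 4.98 and 4.47 carry the difference. It was absent under 9 of 17 alternatives that left no mouse out, and that of *Actn2* under 3 of 18. On *Ankrd2* the treated and WT myofibers overlapped only through Smn1deltaSKM+AFS-6 (1.12) and WT-8 (1.39).

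With the *Myh1* covariate *Ankrd2* was at 2.66 (adjusted p = 0.00526) and *Ankrd1* at 3.05 (adjusted p = 0.00915), but *Actn2* was at 0.82 (adjusted p = 0.584) and *Myl3* at 0.44 (adjusted p = 0.837). With mouse as a random block and no covariate *Actn2* was at 2.32 (adjusted p = 0.129) and *Myl3* at 1.93 (adjusted p = 0.323), so both calls were absent before *Myh1* was added. Without either WT mouse, or without Smn1deltaSKM+AFS mouse 1, 0 members were called higher, and without Smn1deltaSKM+AFS mouse 2 there were 2. Without Smn1deltaSKM mouse 1, which enters only through the shared estimate of the spread, 8 were higher and 12 lower. In *Mylpf* (-1.65, adjusted p = 0.0557), *Mybpc2* (-0.99, adjusted p = 0.0583) and *Smpx* (-1.78, adjusted p = 0.0597) the differences did not pass. For these 3 genes both treated mice lay below both WT mice.

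Some members were measured by several probes, which do not all read the same part of the transcript. Of 10 members with more than 1 tested probe, 8 had probes of 1 sign in Smn1deltaSKM against WT. With each of the 53 member probes on its own, 18 were called lower (34%, against 14.1% of all probes) and 3 higher (5.66%, against 7.34%). The 2 genes with mixed signs were *Cryab* (0.023 and -0.32, neither called) and *Tpm3*. The 3 tested probes of *Neb* and 2 of the 3 of *Tpm3* are shown because their genes' results turn on which of them is used. They are 60 bases long and are given with the position on build mm9 that the array files list, which for the second *Neb* probe spans 59 bases.
Neb, chr2:51992837-51992896, minus strand: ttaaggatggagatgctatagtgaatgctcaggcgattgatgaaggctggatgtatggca
Neb, chr2:52077302-52077360, minus strand: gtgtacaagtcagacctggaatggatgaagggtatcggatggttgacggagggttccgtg
Neb, chr2:52097549-52097608, minus strand: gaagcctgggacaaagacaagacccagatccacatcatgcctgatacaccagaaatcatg
Tpm3, chr3:89877669-89877728, plus strand: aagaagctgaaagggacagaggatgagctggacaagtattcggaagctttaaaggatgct
Tpm3, chr3:89892985-89893044, plus strand: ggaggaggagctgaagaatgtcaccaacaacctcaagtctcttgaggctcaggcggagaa

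On *Neb*, the probe nearest the 3′ end of the gene, the first listed, was at -1.88 (SE 0.269, adjusted p = 0.00806), whereas the other probes were at -0.95 (SE 0.3, adjusted p = 0.0538) and -0.78 (SE 0.267, adjusted p = 0.0669). The outer probes lie 104.7 kb apart. The brightest probe, which stood for the gene above, is the one farthest from the 3′ end, so *Neb* was not called by it but was by the first. On *Tpm3*, the slow-fiber tropomyosin, the probe of the early part of the gene, which stood for it above, was at -0.45 (SE 0.527, adjusted p = 0.555). That value rests on 6 of 8 WT arrays. With the signals left out kept, this probe had means of 1.31 in WT, 2.63 in Smn1deltaSKM and 3.29 in Smn1deltaSKM+AFS. The other printed probe was at 2.23 (SE 0.288, adjusted p = 0.00681) and a further one at 0.70 (SE 0.398, adjusted p = 0.228). In Smn1deltaSKM+AFS against WT the same printed probe was at 2.74 (adjusted p = 0.0127), against 0.21 for the brightest. Tropomyosin genes are similar in sequence, and binding of other tropomyosin RNA to these probes was not tested.

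The 4 *Ttn* probes, spread over the gene, gave -1.77, -1.25, -1.48 and -1.42, of which that at -1.25 was called (SE 0.309, adjusted p = 0.0269). On *Tpm2* the brightest probe was at -0.36 and the other at -1.33 (adjusted p = 0.0231). The 5 *Tpm1* probes, a pair of which overlap, were between -1.6 and -0.15 and the brightest alone was called. Both probes of *Myl1* (-0.96 and -1.71), *Ldb3* (-1.6 and -1.14) and *Myoz3* (-2.23 and -1.95) were called lower, and both of *Mybpc1* (0.33 and 0.14) were not called.

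**Figure D5:**
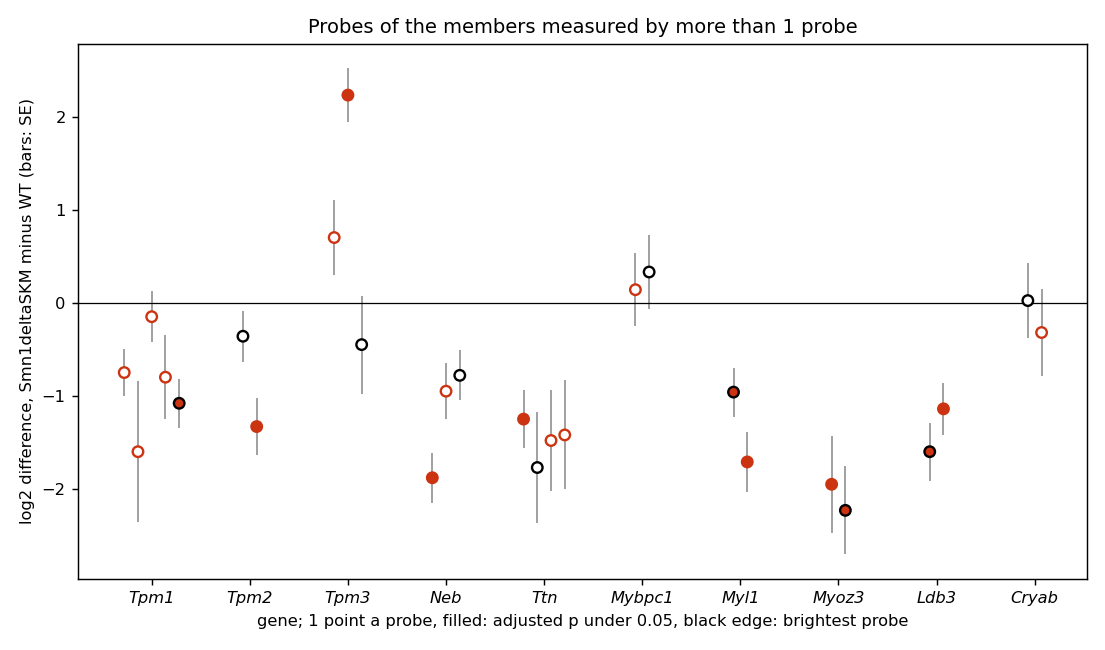
Difference between Smn1deltaSKM and WT for each probe of the 10 members with more than 1 tested probe, on the log2 scale with standard errors. Filled points have an adjusted p under 0.05 and black edges mark the brightest probe; *Tpm3* is the gene with a called probe above 0 (2.23) and another below it (-0.45).

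The untested members are those of slow muscle and heart. *Myl2*, the slow regulatory light chain, had a value on 4 of 8 WT, 8 of 12 Smn1deltaSKM and 5 of 7 Smn1deltaSKM+AFS arrays. *Myoz2*, the slow and cardiac calsarcin, had values on 0, 3 and 4 arrays in the same order. *Lmod2*, the leiomodin of heart and skeletal muscle, had values on 2, 12 and 6. Where measured, *Lmod2* was at -2.57 and -1.97 in WT and at -0.70 to 2.71 in Smn1deltaSKM (median 0.54), and with no filter on the number of values it was called higher there (3.09, SE 0.533, adjusted p = 0.0169). It is not counted among the calls above, because most WT arrays gave no value for it.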

How the data were processed

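RNA of 27 single myofibers was profiled on Agilent mouse arrays, 1 array a myofiber. The deposited intensity values are the background-subtracted, spatially detrended signals of Agilent Feature Extraction 10.7.3.1, per the file headers. The authors' value table, with deposited intensity values on a linear scale made alike between arrays by a method not given in the sources used here, served as an alternative. No columns of other samples were found (0).

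Here each array's 75th percentile was taken from its log2 signals. Spots not found, not well above background or marked as outliers were left out, and spots of a probe were averaged. No spot was saturated (0). Probes with values on at least 75% of arrays were kept (22154), and the brightest probe stood for a gene. Myofibers were averaged by mouse, since they share it, and 3 groups were fitted together with limma 3.58.1 in R 4.3.3 over 16636 genes, with Benjamini-Hochberg adjustment. Calls were made below an adjusted p of 0.05. The authors used SAM on myofibers, which was not run here. Sequences came from the array files and RefSeq, and cell type markers, dissociation genes, fiber-type members and other sarcomere genes were read from fixed lists. The members and lists were chosen with earlier results of these data known. Each member is named, with full values for those called, for the widest difference in each role and for the 5 widest differences between treated and untreated mice. Mouse numbers did not pair the samples: the correlation of same-numbered mice between groups, after removal of group means, ranged from -0.0649 to 0.308. p-values rest on 7 mice.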

Additional observations from a re-analysis of the deposited data

Results flagged for a closer look

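Single myofibers lay far from the rest of their group on 9 of 74 combinations of a member and a group of 4 to 10 measured myofibers, by the gap to the nearest myofiber as a share of the range (Dixon's criterion). Chance alone would flag about 5% of such combinations, which share myofibers and are not independent. WT-8 was flagged on *Mylpf* (4.05, others 5.33 to 5.96), *Myoz1* (6.99, others 7.64 to 8.12), *Tcap* (6.32, others 6.98 to 7.48) and *Tmod4* (5.41, others 6.42 to 6.80), all low, and on *Csrp3* (0.56, others -2.79 to -1.73) and *Ankrd2* (1.39, others -1.18 to -0.33), both high. This myofiber had *Myh1* at 3.35. WT-7 was flagged on *Actn3* (5.43, others 7.46 to 8.26), and its *Col1a2*, a fibroblast marker, was at 5.79 where the other WT myofibers had -2.07 to 1.37. WT-3 was flagged on *Cryab* (6.33, others 6.80 to 7.21) and Smn1deltaSKM+AFS-3 on *Trim55* (0.69, others 1.48 to 1.72). The group of 12 Smn1deltaSKM myofibers was too large for this criterion.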

How the results depend on the processing

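In Smn1deltaSKM against WT all 14 called members kept their direction under every alternative, and *Mylpf*, *Myoz3*, *Ldb3* and *Myot* were called under each one that left no mouse out. Leaving out 1 mouse gave 0 to 18 members lower, 0 to 5 higher and medians from -0.90 to -0.65. Quantile normalization gave 6 lower and a median of -0.41, normexp before it a median of -0.38, and the values of the authors gave 5 lower and -0.39. Values required on every array gave 1 higher, myofibers as replicates 4 higher and 21 lower, and slide as a random block 0 higher. Numbers of mice or myofibers are not shared by animals across groups. The replicate block by myofiber number gave 4 higher and 21 lower, and that by mouse number 2 higher and 9 lower.

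In Smn1deltaSKM+AFS against Smn1deltaSKM 0 members were called under every setting, and the median was 0.31 with the authors' table, 0.90 with slide as a random block and 0.32 to 0.73 with 1 mouse left out.

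In Smn1deltaSKM+AFS against WT, 1 member was lower with normexp, the signal kept, the mean of probes, each probe on its own or slide as a random block. Mouse as a random block gave 9 lower, the variance trend 5, and the *Myh1* covariate with that block, chosen after seeing the data, 7. Values on every array and slide as a random block gave 2 higher. Myofibers as replicates gave 7 higher and 13 lower, the replicate block by myofiber number 7 and 12, that by mouse number 3 lower, and the fit without the Smn1deltaSKM myofibers of scan day 1, also chosen after seeing the data, 7 higher and 4 lower. Leaving out 1 mouse gave 0 to 8 higher and 0 to 12 lower. The cause of these changes was not tested, and the shares of all genes called under the settings of this section are not given. Among uncalled members 9, 11 and 7 changed sign in the 3 comparisons under some setting. The number of mice, and probes near background such as *Csrp3*, *Myl3* and *Ankrd2* in WT, limit these values.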
